A study of Mus musculus with 27 samples.

Results

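The genes described here are all collagens and laminin chains that the array can name: every gene whose annotated symbol has the form of a collagen chain (Col, a number, a, a number) or of a laminin chain (Lama, Lamb or Lamc and a number). The rule took 50 genes, 41 collagens and 9 laminins, read by 110 of the 45281 probes, with no filter on detection. A gene could be tested only if a probe of it lay above background in at least 5 of the 27 arrays, and 26 of the 50 did, 20 collagens and 6 laminins. Of these 26, 16 met that limit on the embryonic arrays alone and 10 met it only through the arrays of postnatal neurons.

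Collagens are trimers of alpha chains. Fibrillar collagens (I, II, III, V, XXIV) form the fibres of connective tissue, collagen IV forms the network of basement membranes, and the multiplexins XV and XVIII sit in basement membranes beside it. The FACIT collagens (IX, XVI, XXII) attach to fibrils or to the edges of basement membranes. Laminins are trimers of 1 alpha, 1 beta and 1 gamma chain that polymerise into the sheet on which collagen IV is laid. In the developing cortex, basement membranes lie under the pia, where the endfeet of radial glia attach, and around blood vessels, and the cells of vessels and meninges are the usual sources of fibrillar and network collagens.

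RNA of mouse samples was measured on Illumina BeadChips, 1 array per sample, in 5 groups. They were E13 embryo (6 arrays) and E16 embryo (5 arrays), Tbr2 conditional knockout (cKO) embryonic cortex at E13 (5 arrays) and at E16 (6 arrays), where E is the embryonic day, and neurons of the Tbr2 lineage from the cortex at postnatal day 2 (P2, 5 arrays). The P2 neurons were sorted for green fluorescent protein (GFP). Their genotype is not stated beyond the GFP marker, nor is the driver of that marker. In the deposited table the embryo columns are marked WT, taken here to mean wild type, while the sample labels name no tissue and give the E16 samples the age E13. Which Cre line made the knockout is not given, and a protocol that describes the GFP sort is repeated for every sample. No label says that the samples of a group came from separate animals, so p-values measure the spread between these samples, which may be technical. The arrays of embryo, of cKO and of P2 neurons were deposited in 3 separate tables, so genotype and table cannot be told apart, nor can age, sort and table in the comparisons with P2.

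Between 36.9% and 42.9% of probes were above background per array. Before normalisation, the median raw signal ran from 17.6 to 42.3 in the P2 arrays and from 8.51 to 16.8 in the embryonic arrays, without overlap. Eomes, the gene of Tbr2, did not tell the labelled genotypes apart. Its normalised log2 signal was 11.20 ± 0.27 (SD, n = 6) in E13 embryo and 11.46 ± 0.10 (SD, n = 5) in the E13 arrays labelled cKO (limma adjusted p = 0.780), and 10.45 ± 0.32 (SD, n = 5) and 11.04 ± 0.46 (SD, n = 6) at E16 (adjusted p = 0.259). A second kept Eomes probe ran from 9.54 to 10.34 in E13 embryo and from 10.22 to 10.78 in the E13 arrays labelled cKO. At E16 it ran from 9.01 to 9.38 in embryo and from 8.54 to 10.48 in the arrays labelled cKO. A probe outside the deleted part would not show a deletion, and where these probes lie in relation to it was not given. For this reason the arrays are called "labelled cKO" throughout, and every direction between genotypes rests on those labels. Array 4 of the E13 group labelled cKO stood apart. The summed signal of 11 endothelial markers was 1579 there, against a group median of 570. That of 7 choroid plexus markers was 6504, against a group median of 582. In the P2 arrays the endothelial sum ran from 6502 to 9111 and that of 10 microglial markers from 4370 to 7098, although the sample was sorted for neurons. The excitatory neuron markers, all 9 above background in every P2 array, summed to between 43888 and 53352. In bulk RNA, fewer cells of a type and less RNA per cell cannot be told apart.

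The promoters of the genes on which the results turn are printed first. They come from RefSeq on the mouse build GRCm38.p6 and span 250 bases before to 50 bases after the annotated start. Col4a1 (Entrez Gene 12826) and Col4a2 (Entrez Gene 12827), the main chains of collagen IV, lie head to head on chromosome 8 and are shown because they differed most between P2 and the embryo arrays. Their windows overlap, and the capitals mark the 78 bases that both share, read on opposite strands. The Col4a1 window is chr8:11312777-11313076 on the minus strand and the Col4a2 window is chr8:11312555-11312854 on the plus strand.
Col4a1: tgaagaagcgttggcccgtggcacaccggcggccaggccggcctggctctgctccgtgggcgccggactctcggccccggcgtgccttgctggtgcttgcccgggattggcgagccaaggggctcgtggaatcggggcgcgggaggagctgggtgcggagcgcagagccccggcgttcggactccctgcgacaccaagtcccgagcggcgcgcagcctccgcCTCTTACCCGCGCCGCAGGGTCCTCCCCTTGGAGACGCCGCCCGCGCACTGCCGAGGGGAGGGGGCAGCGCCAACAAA
Col4a2: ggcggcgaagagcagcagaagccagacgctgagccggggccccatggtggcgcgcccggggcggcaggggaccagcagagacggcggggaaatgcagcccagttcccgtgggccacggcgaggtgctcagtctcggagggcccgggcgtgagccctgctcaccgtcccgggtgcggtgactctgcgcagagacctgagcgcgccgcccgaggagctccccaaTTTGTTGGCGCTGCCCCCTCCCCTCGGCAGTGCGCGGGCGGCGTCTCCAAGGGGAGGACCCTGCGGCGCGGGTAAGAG

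Col9a2 (Entrez Gene 12840, chromosome 4), a chain of the FACIT collagen IX known from cartilage, is shown because it differed between the labelled genotypes at both stages, and Tbr2 is a factor of the T-box family. Its window is chr4:121039316-121039615 on the plus strand. The capitals mark TCACAC, the core of the T-box half-site, which begins at position -127 from the start.
Col9a2: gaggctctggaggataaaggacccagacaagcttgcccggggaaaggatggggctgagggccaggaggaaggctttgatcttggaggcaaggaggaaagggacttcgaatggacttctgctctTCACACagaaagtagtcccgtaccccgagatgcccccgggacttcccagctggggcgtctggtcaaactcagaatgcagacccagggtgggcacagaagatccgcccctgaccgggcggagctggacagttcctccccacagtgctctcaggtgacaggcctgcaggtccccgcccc
On either strand, TCACAC was found in 14.5% of all 32841 RefSeq windows of this length and in 6 of the 42 windows of 38 member genes, 14.3%. The longer half-site TCACACCT, which contains it, was found in 1.28% of all windows and in 0 of those 42. The GC box letters GGGCGG were in 35.7% of all windows and 61.9% of the members', both collagen IV windows among them. A match of letters is a description, and no binding was measured.

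**Figure D1:**
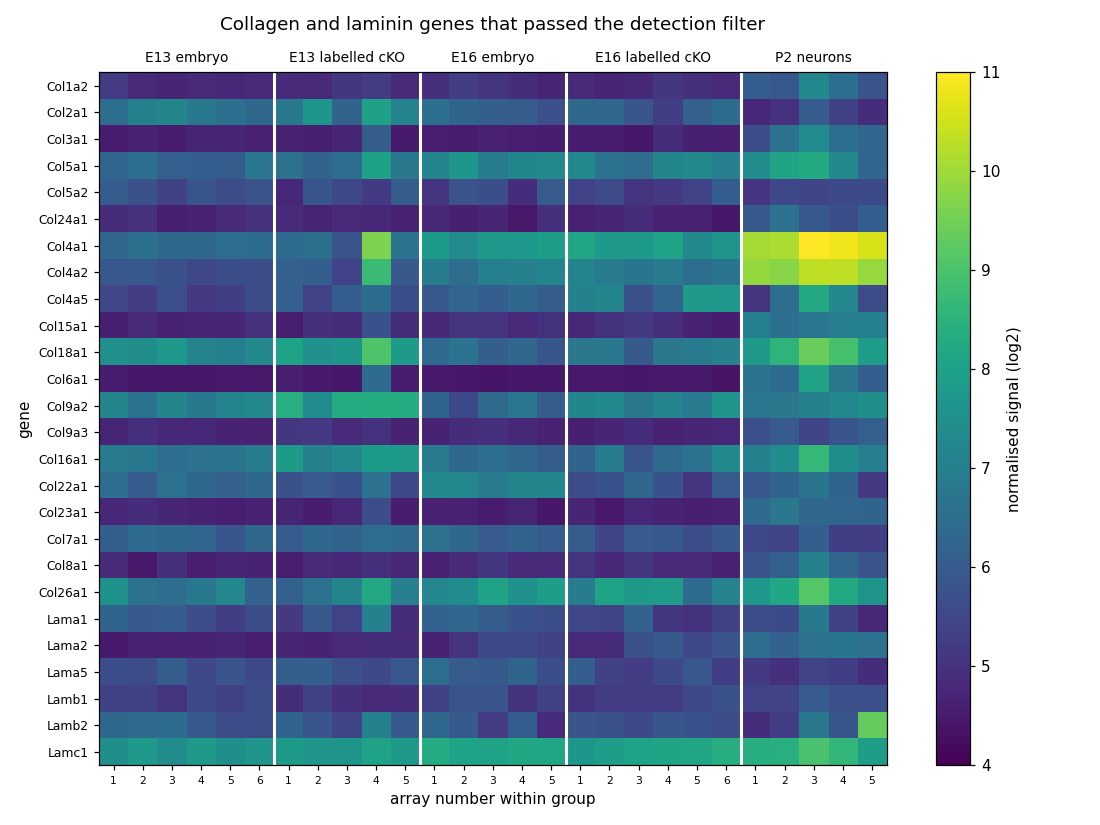
Normalised log2 signal (colour) of the 26 tested collagen and laminin genes (rows) in the 27 arrays (columns, in 5 groups, numbered within a group). Col4a1 and Col4a2 are brightest in the 5 P2 arrays, and array 4 of the E13 group labelled cKO stands out from its group for Col4a1, Col4a2, Col3a1 and Col6a1.

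Between E13 and E16 in the embryo arrays, 6 of the 26 tested genes passed with a higher fitted value at E16 and 2 with a lower one. One of the 6, Lama2, was below background in all arrays of both groups. Of all 10663 genes tested, 11.5% rose and 12.3% fell in that comparison (23.8% in all). Of the 3 collagen IV chains tested, Col4a1 and Col4a2 rose and had the largest rises of the 26 genes, with the fibrillar chain Col5a1 next, while the basement membrane collagen Col18a1 and the cartilage collagen chain Col9a2 fell. The median change of the 26 was 0.10 on the log2 scale, against -0.01 over all genes. Among the 16 genes that met the detection limit on embryonic arrays alone, 5 rose and 2 fell, where 12.1% and 13% of all genes detected likewise did.

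The signal of Col4a1 in E13 embryo ran from 6.32 to 6.58 with a median of 6.42, and in E16 embryo it was 7.81, 7.38, 7.75, 7.72 and 7.90. Every E16 array was above every E13 array. The change was 1.27 ± 0.39 (SE), 2.42-fold, with a limma adjusted p of 0.0175. Col4a2 ran from 5.52 to 5.93 at E13, median 5.71, with 4 of 6 arrays above background, and was 6.93, 6.51, 7.02, 7.04 and 7.17 at E16. These groups did not overlap either, and the change was 1.20 ± 0.34 (SE), 2.29-fold (adjusted p = 0.0101). The third measured chain, Col4a5, was above background in 1 of 6 arrays at E13 and 5 of 5 at E16 and differed by 0.73 ± 0.39 (SE), which did not pass (adjusted p = 0.191).

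Col5a1, a chain of the minor fibrillar collagen V that sets fibril diameter, ran from 6.06 to 6.74 at E13, median 6.21, and was 7.17, 7.69, 6.96, 7.21 and 7.31 at E16. The groups did not overlap and the rise was 1.94-fold (0.96 ± 0.28 SE, adjusted p = 0.0149). Lamc1, the gamma chain that most laminin trimers contain, rose from 7.60 ± 0.14 (SD, n = 6) to 8.14 ± 0.11 (SD, n = 5), a change of 0.55 ± 0.13 (SE) with no overlap (adjusted p = 0.0033). With arrays scaled to their medians in place of quantiles the change was 0.50 and did not pass (adjusted p = 0.0810). A second Lamc1 probe changed by 0.41, with an adjusted p of 0.0611 in a fit over all kept probes. Lama2, the alpha chain of muscle and vessel laminins, also passed, but 0 arrays of either group held it above background, so no fold is given and its direction is that of the fit alone.

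The falls were of a similar size. Col18a1, whose C-terminal fragment is endostatin, ran from 7.03 to 7.73 at E13, median 7.37, and was 6.40, 6.67, 6.12, 6.31 and 5.87 at E16. It fell in all E16 arrays below the E13 range, by 1.08 ± 0.26 (SE) on the log2 scale or 2.12-fold (adjusted p = 0.0033). Col9a2 ran from 6.68 to 7.26 at E13, median 7.16, and was 6.25, 5.58, 6.41, 6.74 and 6.05 at E16. In 4 of 5 E16 arrays it was below all E13 arrays, and it fell by 0.85 ± 0.20 (SE) on the log2 scale (1.80-fold, adjusted p = 0.0025). Col2a1, the main fibrillar collagen of cartilage and an early neuroepithelial transcript, was lower by 0.62 without passing (adjusted p = 0.0982 at its brightest probe). One of its other probes did pass, at -0.91 (adjusted p = 0.0032), with 3 of 6 arrays above background at E13 and 0 of 5 at E16.

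In the arrays labelled cKO, 1 of the 26 genes rose between E13 and E16 and 5 fell, against 11.6% and 14.3% of all genes (26% in all). Col18a1 fell by 1.32 ± 0.26 (SE) on the log2 scale, or 2.50-fold (limma adjusted p = 0.000448). It was 8.06, 7.53, 7.71, 9.08 and 7.81 at E13 and ran from 5.98 to 7.04 at E16, median 6.80, with no overlap. Col9a2 fell by 0.98 ± 0.20 (SE) on the log2 scale, or 1.98-fold (adjusted p = 0.000505).

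Col2a1, at 6.80, 7.67, 6.24, 8.01 and 7.14 at E13 and 5.29 to 6.48 at E16 (median 6.25), fell by 1.10 ± 0.27 (SE) on the log2 scale (adjusted p = 0.0030). Its groups overlapped. Col16a1, a FACIT collagen of basement membrane borders, was 7.81, 7.04, 7.34, 7.81 and 7.79 at E13 and ran from 5.83 to 7.31 at E16, median 6.54. It fell by 1.00 ± 0.25 (SE) on the log2 scale (adjusted p = 0.0034). Col7a1, the collagen of anchoring fibrils, fell by 0.46 ± 0.14 (SE) on the log2 scale (adjusted p = 0.0187).

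Some markers of other cells fell between the same arrays, where 14.3% of all genes fell and 11.6% rose. Of 10 tested endothelial markers 1 fell, and 0 of 10 microglial and 0 of 5 tested pericyte and smooth muscle markers passed. Of 7 choroid plexus markers 4 were tested, and Ttr, Otx2 and Clic6 fell. Their summed signal over all 7 was 420 to 6504 at E13 and 195 to 340 at E16, where 5 of 7 were above background in no array. Of 10 radial glia markers 4 fell and 1 rose, with sums of 3830 to 6271 at E13 and 2283 to 3205 at E16. Of 11 meningeal markers 6 were tested, and Igf2 and Zic1 fell, with sums of 2406 to 6000 and 1347 to 2549. The highest E13 sum of each of these 3 lists was that of array 4. The E13 group medians were 582 for choroid plexus, 3866 for radial glia and 3173 for meninges. In the embryo arrays, where Col18a1 and Col9a2 also fell, Otx2 was the 1 choroid plexus marker of the 4 tested that fell. The choroid plexus sums there were 336 to 698 at E13 and 241 to 277 at E16. Of the 10 radial glia markers 2 fell and 1 rose in the embryo arrays, and 0 of the 6 meningeal markers passed. Of all genes 12.3% fell and 11.5% rose there. The part of these markers in the collagen falls was not tested.

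Lama2 was below background in all 5 E13 arrays, at 4.76, 4.67, 4.85, 4.92 and 4.88. At E16 it ran from 4.84 to 6.00 with a median of 5.63, and 2 of 6 arrays held it above background. The fitted change was 0.65 ± 0.18 (SE, adjusted p = 0.0072), and no fold is given, because the bound against the background limit was not above 1.

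One array decided whether collagen IV rose here. Col4a1 was 6.46, 6.59, 5.82, 9.65 and 6.68 in the E13 arrays labelled cKO and ran from 7.33 to 8.15 at E16, median 7.80. Col4a2 was 6.15, 6.09, 5.41, 8.78 and 5.94 at E13 and ran from 6.52 to 7.14 at E16. Array 4, the high value of both genes at E13, is the array with the high endothelial, choroid plexus and erythroid sums. Its meningeal sum was also the highest of its group, at 6000 against 2406 to 3912 in the others. So was its pericyte and smooth muscle sum, at 604 against 323 to 338, and its microglial and radial glia sums. The part of those markers in the values of array 4 was not tested. With that array the changes were 0.75 (adjusted p = 0.166) and 0.33 (adjusted p = 0.519). Without it they were 1.40 (adjusted p = 6.4e-06) and 0.90 (adjusted p = 8.5e-05), so that 3 genes rose and 4 fell, Col7a1 being the call that was lost (adjusted p = 0.0546). The share of all genes in that fit is not given, so these counts show only how the calls moved.

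**Figure D2:**
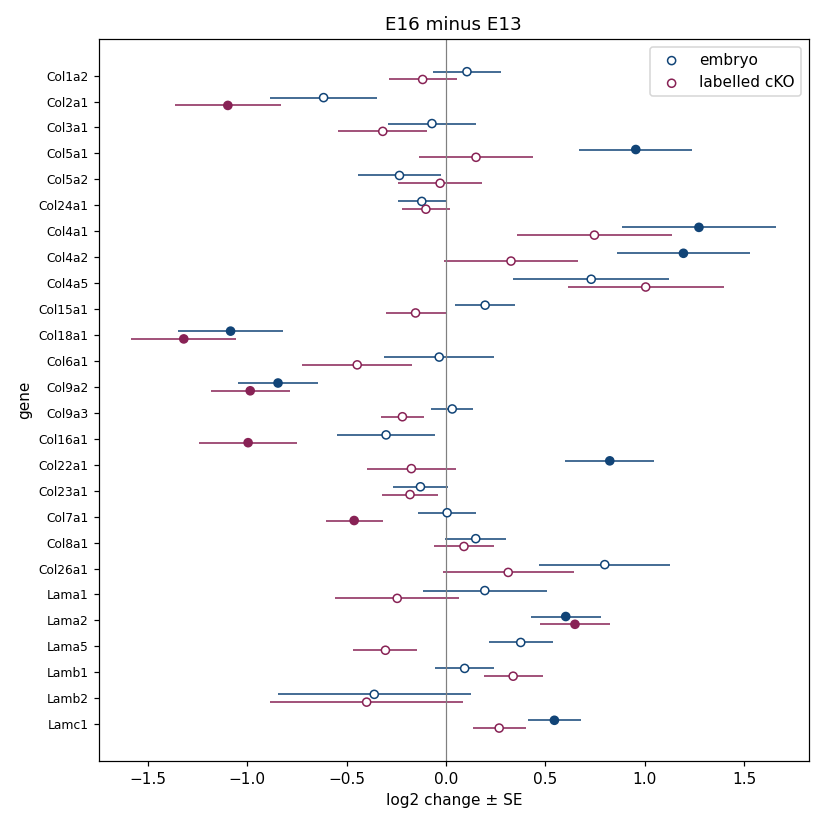
Log2 change from E13 to E16 (horizontal axis, points with SE) of the 26 tested genes in the embryo arrays and in the arrays labelled cKO; filled points passed at an adjusted p under 0.05. Col4a1, Col4a2 and Col5a1 lie to the right in the embryo arrays, and Col18a1 and Col9a2 to the left in both.

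Whether the stage change itself differed between the labelled genotypes was tested as an interaction, which 0 of the 26 genes passed in limma (0.0188% of all genes did, 0.00938% in each direction). At an unadjusted p under 0.05 there were 3: Col22a1 (95% interval -1.65 to -0.35, adjusted p = 0.735), Lama5 at -0.68 ± 0.23 (SE) and Col7a1 at -0.47 ± 0.20 (SE). A gene that passed at 1 genotype and not at the other is therefore not shown to differ between them. The comparisons of stage and of genotype share arrays.

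Between the labelled genotypes, Col9a2 and Col22a1 differed. At E13 1 of the 26 genes was higher in the arrays labelled cKO and 0 were lower, against 0.76% and 0.732% of all genes (1.49% in either direction). At E16 1 was higher and 1 lower, against 0.263% and 0.244% (0.506% in either direction). The genes were Col9a2 at both stages and Col22a1 at E16. Both were known from earlier results of these data when they were picked for description, so their values stand as a description of these arrays beside the test over all genes.

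Col9a2 was 8.41, 7.40, 8.30, 8.33 and 8.32 in the E13 arrays labelled cKO, against 6.68 to 7.26 in E13 embryo (median 7.16). All 5 were above the highest embryo array, array 2 by the smallest margin. The difference was 1.10 ± 0.20 (SE), 2.14-fold, with an adjusted p of 0.0040. On the second principal component of the embryonic arrays, which held 10.6% of the variance, that same array 2 lay at 10.7, within the 5.16 to 15.7 of the E13 embryo arrays.

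At E16 Col9a2 was lower in both genotypes and the gap was about as wide. It ran from 6.80 to 7.66 in the arrays labelled cKO, median 7.17, and was 6.25, 5.58, 6.41, 6.74 and 6.05 in E16 embryo, where 4 of 5 arrays were above background. The groups did not overlap, and the difference was 0.96 ± 0.20 (SE), 1.95-fold (adjusted p = 0.0225). This call was lost in a fit of the 2 groups alone (adjusted p = 0.116), and without any 1 of 4 arrays: embryo arrays 2 and 5 and arrays 2 and 6 of those labelled cKO (adjusted p from 0.0614 to 0.0872). At P2 it was 7.07 ± 0.31 (SD, n = 5).

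Col22a1 (Entrez Gene 69700, chromosome 15), a FACIT collagen known from the muscle and tendon junction, went the other way. It was 7.30, 7.24, 6.88, 7.17 and 7.18 in E16 embryo, its highest level of the 5 groups, and ran from 5.04 to 6.35 in the E16 arrays labelled cKO, median 5.76, with 2 of 6 above background. The groups did not overlap and the difference was -1.40 ± 0.22 (SE), 2.64-fold lower in the arrays labelled cKO (adjusted p = 0.0033). At E13 it ran from 6.03 to 6.61 in the embryo arrays, median 6.35, and was 5.72, 6.02, 5.76, 6.63 and 5.52 in those labelled cKO. That difference, -0.40 ± 0.22 (SE), did not pass (adjusted p = 0.626, 95% interval -0.86 to 0.06).

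Col22a1 rose from E13 to E16 in the embryo arrays without overlap, by 0.82 ± 0.22 (SE, 1.77-fold, adjusted p = 0.0076). In the arrays labelled cKO the same change was -0.17 ± 0.22 (SE, adjusted p = 0.614), and it was 0.00 without array 4 of the E13 group. A second Col22a1 probe was below background on all 27 arrays. The order of group means was E16 embryo, E13 embryo, P2, E13 labelled cKO and E16 labelled cKO, and the last 4 overlap in their arrays.

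**Figure D3:**
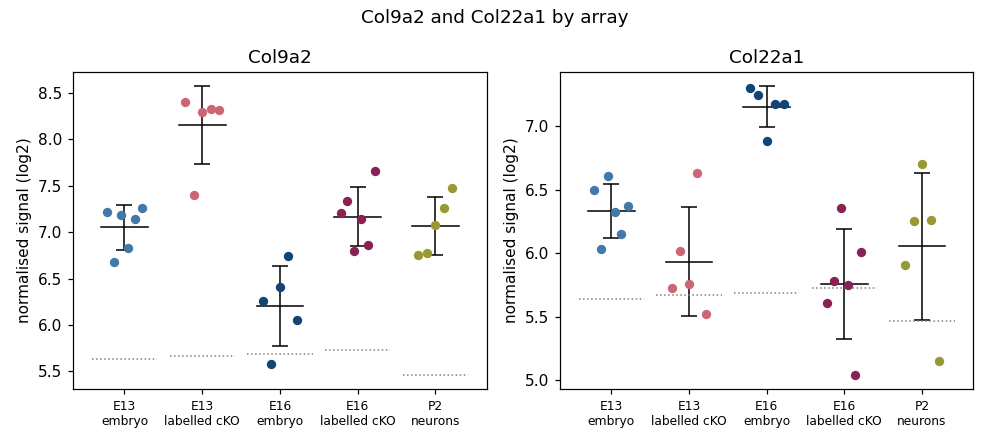
Normalised log2 signal (vertical axis) of Col9a2 and Col22a1 in each array, with the mean and SD of each group (bars) and the mean background limit of the group (dotted line). Col9a2 in the arrays labelled cKO lies above the embryo arrays of the same stage, and Col22a1 in E16 embryo lies above all other groups, with only some arrays labelled cKO above the background limit.

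The other 24 genes did not pass between genotypes at either stage. The nearest was Col16a1, which was higher in all 5 E13 arrays labelled cKO than in any E13 embryo array (0.83 ± 0.25 SE, adjusted p = 0.107) and passed without array 2 of those labelled cKO (0.96, adjusted p = 0.0331). At E16, Lama5, an alpha chain of basement membranes, differed by -0.52 ± 0.16 (SE, adjusted p = 0.190) and Col7a1 by -0.39 ± 0.14 (SE, adjusted p = 0.382). The endothelial sum, 472 to 558 in the E16 arrays labelled cKO and 523 to 576 in E16 embryo, overlapped between genotypes at that stage, and 8 of its 11 markers were above background in 0 arrays of either group. Other markers differed between the labelled genotypes. Of 9 thalamus and habenula markers 8 were tested, and Gbx2 was higher in the arrays labelled cKO at E13 (2.51, adjusted p = 0.0297) and at E16 (3.68, adjusted p = 0.0043), as was Pou4f1 at E16 (1.57, adjusted p = 0.0275), both on the log2 scale. Gbx2 and Pou4f1 were above background in 0 of the E16 embryo arrays, so these E16 values depend on signals at background and are no folds. The sums of that list overlapped, at 9033 to 11590 in E13 embryo and 9458 to 11912 in the E13 arrays labelled cKO, and 7318 to 9551 and 6770 to 11020 at E16. Of 9 excitatory neuron markers, Slc17a7 (-1.51, adjusted p = 0.0128) and Tbr1 (-1.16, adjusted p = 0.0162) fell short of the E13 embryo level in the cKO-labelled arrays, and 0 passed at E16. Their sums were 46090 to 57694 in E13 embryo and 39525 to 46648 in the E13 arrays labelled cKO. The part of these markers in the Col9a2 and Col22a1 differences was not tested. Col4a1 differed by 0.08 at E16, with a 95% interval of -0.72 to 0.87.

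**Figure D4:**
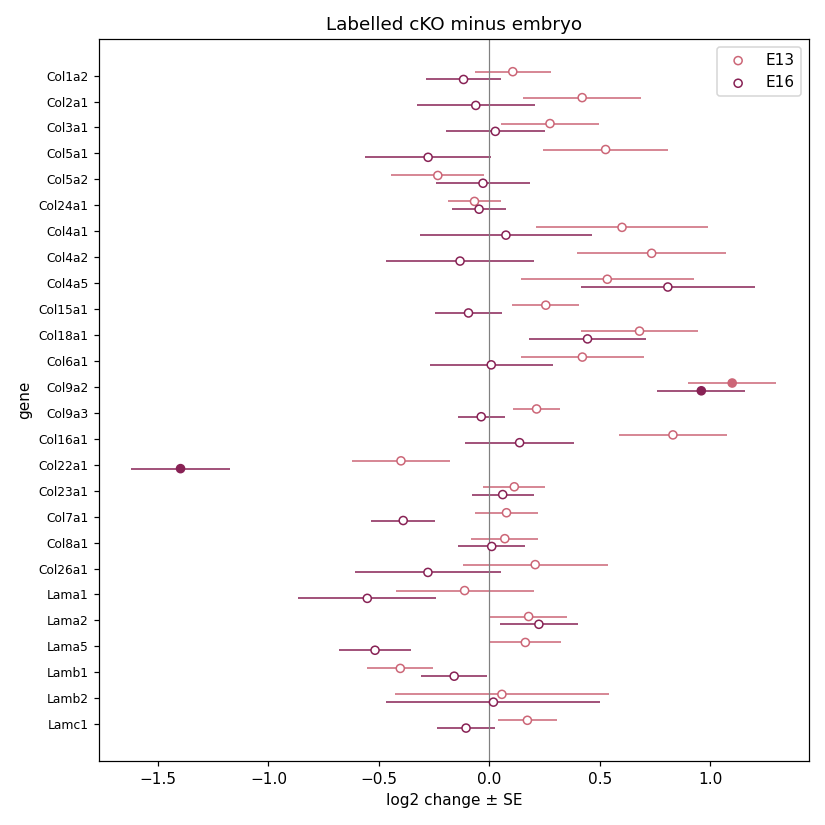
Log2 difference between arrays labelled cKO and embryo arrays (horizontal axis, points with SE) of the 26 tested genes at E13 and at E16; filled points passed at an adjusted p under 0.05. Only Col9a2, at both stages, and Col22a1, at E16, are filled.

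In the P2 arrays, Col4a1 and Col4a2 were at their highest of the 5 groups. Against E16 embryo, 15 of the 26 genes were higher and 4 lower, where 30.4% and 41.5% of all genes were (71.9% in all). Against E13 embryo, 17 were higher and 3 lower, where 31.8% and 42.1% were (73.9% in all). Both comparisons use the same P2 arrays. The 10 genes that were tested only because P2 arrays held them above background were chosen by those arrays, so these counts are not read as support. They were Col1a2, Col3a1, Col6a1, Col8a1, Col9a3, Col15a1, Col23a1, Col24a1, Lama2 and Lamb1, and their levels at P2 are given below as a description. A p is given for Lamb1 alone, whose call turned on the scaling, and nothing is read from it. Among the 16 others, 6 were higher and 4 lower than in E16 embryo, where 26.2% and 44.5% of all genes detected likewise were, and 8 were higher and 3 lower than in E13 embryo, where 27.6% and 45.1% were.

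Collagen IV differed most. Col4a1 was 10.04, 10.15, 11.24, 10.86 and 10.58 in the P2 arrays, and every one of them was above all embryonic arrays. It was 2.86 ± 0.41 (SE) above E16 embryo, 7.27-fold (adjusted p = 6.2e-07), and 17.6-fold above E13 embryo. Col4a2 was 9.89, 9.75, 10.34, 10.33 and 9.93, again above all embryonic arrays, 8.66-fold above E16 embryo (3.11 ± 0.35 SE, adjusted p = 1.3e-08) and 19.8-fold above E13 embryo. Col4a5, a chain of other collagen IV networks, was uneven at 5.07, 6.54, 8.22, 7.25 and 5.59. It passed only against E13 embryo (1.11 ± 0.39 SE, adjusted p = 0.0131), a call that was lost without array 3 (adjusted p = 0.0797).

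Of the multiplexins, Col18a1 was 7.76, 8.56, 9.40, 8.95 and 7.93, 4.74-fold above E16 embryo (adjusted p = 5.8e-08) and 2.24-fold above E13 embryo (adjusted p = 0.00031). Its fall from E13 to E16 and its high level at P2 put E16 embryo lowest of the 3. Col15a1, found around vessels, was 7.03, 6.56, 6.74, 7.01 and 7.03, while 0 of 11 embryo arrays held it above background. Its P2 level was at least 2.28-fold that of E16 embryo.

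Of the fibrillar chains, Col3a1, Col1a2 and Col24a1 were tested only through the P2 arrays, so their levels are a description. Col3a1, the collagen of vessel walls and meninges, was 5.65, 6.62, 7.38, 6.57 and 6.30 in the P2 arrays and above background in none of the embryo arrays, at least 1.77-fold higher than in E16 embryo. Col1a2, a chain of collagen I, was at least 1.57-fold higher and Col24a1, which shapes collagen I fibrils, at least 1.30-fold higher than in E16 embryo. Col5a1 was 2.25-fold above E13 embryo (adjusted p = 0.00064) but within the spread of E16 embryo (0.21 ± 0.30 SE, adjusted p = 0.529). Col5a2 passed against neither stage, at -0.06 from E16 embryo (adjusted p = 0.824) and -0.29 from E13 embryo (adjusted p = 0.214). Col2a1 was lower, at 4.81, 5.00, 6.04, 5.39 and 4.91 with 2 of 5 arrays above background, 1.87-fold below E16 embryo (adjusted p = 0.0053) and 2.87-fold below E13 embryo (adjusted p = 1.3e-05). The dimmest of its 3 kept probes was above background in 0 arrays of P2 and of E16 embryo.

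Among other collagens, Col6a1, a chain of the beaded microfilament collagen VI, was 6.70, 6.45, 8.09, 6.76 and 6.09 at P2 and at least 2.20-fold above E16 embryo. Array 3 was its highest, as it was for Col4a1, Col18a1, Col3a1 and Col1a2. Array 3 also had the highest meningeal, pericyte and smooth muscle, choroid plexus, erythroid and radial glia sums of the P2 group. Its radial glia sum was 18756, against a group median of 3266. The part of those markers in the values of array 3 was not tested. The transmembrane collagen Col23a1 was at least 1.64-fold higher than in E16 embryo, Col8a1, a short chain collagen of endothelial membranes, at least 1.47-fold and Col9a3, a partner chain of Col9a2, at least 1.11-fold. Col9a2 itself was above E16 embryo (1.82-fold, adjusted p = 0.00064) and at the level of E13 embryo (0.02 ± 0.20 SE, adjusted p = 0.942). Col16a1 passed against both stages, at 2.16-fold above E16 embryo and 1.75-fold above E13 embryo. Col26a1, a collagen described in reproductive tissue, was higher than in E13 embryo only in the test (2.55-fold, adjusted p = 0.00064), its difference from E16 embryo being 0.55 ± 0.34 (SE, adjusted p = 0.152).

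Col22a1 was 5.91, 6.25, 6.70, 6.26 and 5.15 at P2, all below the E16 embryo arrays, and 2.15-fold lower (adjusted p = 0.000152). Under median scaling this difference of -1.10 was -0.73 (adjusted p = 0.0133). Its difference from E13 embryo, -0.28 ± 0.22 (SE), did not pass (adjusted p = 0.266). Col7a1 was 5.52, 5.44, 6.09, 5.31 and 5.27 and was lower than at both stages, 1.64-fold against E16 embryo and 1.63-fold against E13 embryo. Under median scaling the difference from E16 embryo shrank from -0.71 to -0.39 and did not pass (adjusted p = 0.0510), and that from E13 embryo was -0.47 (adjusted p = 0.0154). In 4 of the 5 P2 arrays it was below every embryo array of either stage.

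The laminin chains are given 1 by 1. Lama2, tested only through the P2 arrays and so given as a description, was 6.51, 6.19, 6.60, 6.72 and 6.63 at P2. These were above all embryonic arrays, and at least 1.80-fold above E16 embryo. Lama5 was 5.18, 4.94, 5.43, 5.30 and 4.92, with 1 of 5 arrays above background, and fell below all E16 embryo arrays, 1.91-fold (adjusted p = 2.0e-05), and 1.47-fold below E13 embryo (adjusted p = 0.0030). Lamc1 was 1.81-fold above E13 embryo (adjusted p = 2.1e-06) and 1.24-fold above E16 embryo (adjusted p = 0.0466), the latter lost without array 3 and 0.49 in place of 0.31 on the log2 scale under median scaling. Its second probe did not differ from E13 embryo (0.02) and was lower than in E16 embryo (-0.39, adjusted p = 0.0349), so the direction of Lamc1 against E16 depends on the probe.

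Lama1, an alpha chain of the early pial membrane, and the beta chains Lamb1 and Lamb2 did not pass against either stage. For Lamb1 this turned on the scaling: its differences from E16 and E13 embryo were 0.15 and 0.25, and under median scaling 0.45 (adjusted p = 0.0216) and 0.51 (adjusted p = 0.0062). Lamb2, the beta chain of vessel and synaptic membranes, was 4.92, 5.27, 6.81, 5.83 and 9.34, with array 5 far above the other 4 and a mean of 6.43.

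**Figure D5:**
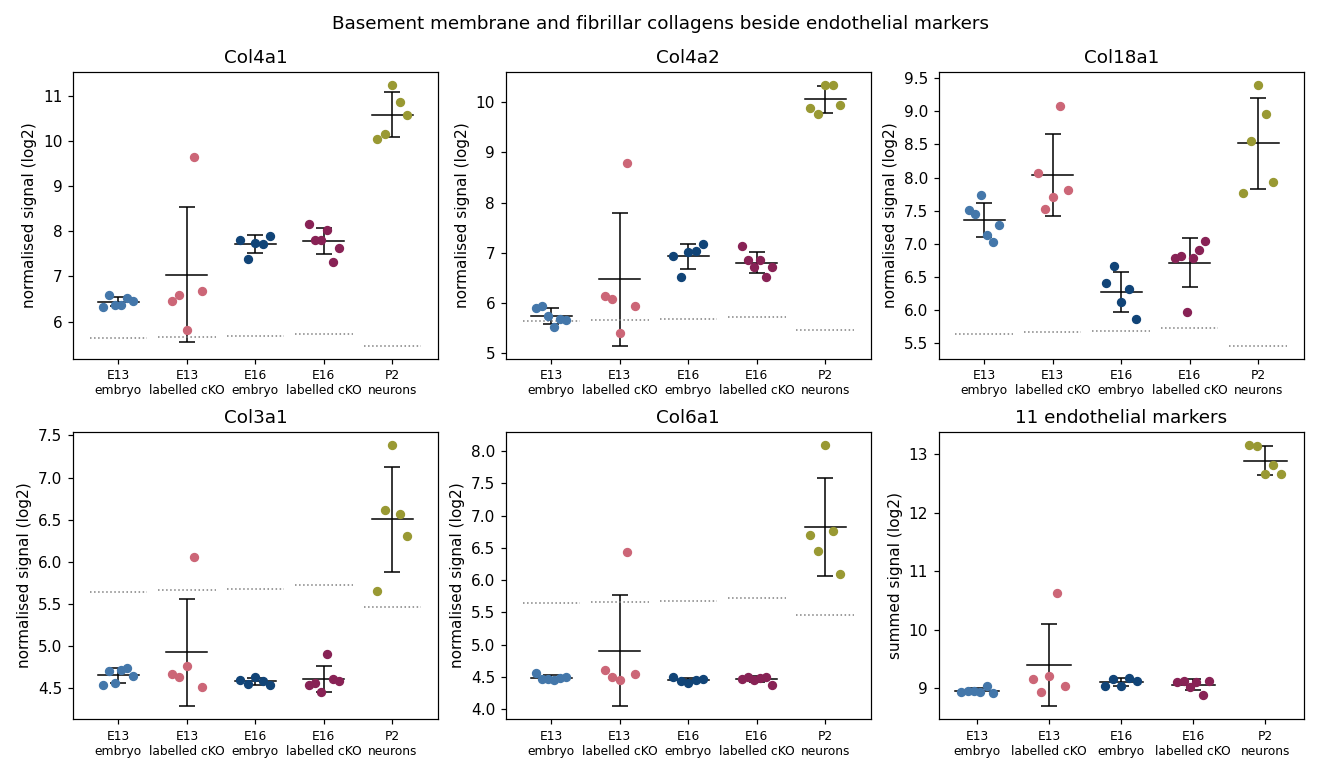
Normalised log2 signal (vertical axes) of 5 collagens in each array, with group mean and SD (bars) and mean background limit (dotted line), beside the log2 of the summed signal of 11 endothelial markers. The 5 P2 arrays lie above all embryonic arrays for Col4a1, Col4a2 and the endothelial sum, and array 4 of the E13 group labelled cKO is the next highest in these 3 panels. Within the P2 group the order differs. Array 3 is highest for Col4a1 and Col4a2, while its endothelial sum of 6502 is the lowest, level with array 5 at 6503. Array 1 is lowest for Col4a1, and its endothelial sum of 9111 is the highest.

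Markers of other cells were high in the same P2 arrays. Of the 11 endothelial markers, 10 were above background in every P2 array and Kdr in none, against a sum of 484 to 526 in E13 embryo and 523 to 576 in E16 embryo, where 8 of 11 were above background in no array. The sum of 10 pericyte and smooth muscle markers was 592 to 1881 at P2, against 306 to 331 in E16 embryo, and that of 11 meningeal markers 4090 to 14533, against 1652 to 2691. No P2 array held 2 of the 10 and 3 of the 11 above background. Of 5 tested pericyte and smooth muscle markers 3 were higher than in E16 embryo and 0 lower. Of 6 tested meningeal markers 5 were higher and 1 lower, where 30.4% and 41.5% of all genes were. Some were tested only through the P2 arrays, so these counts are not read as support. Choroid plexus markers summed to 1853 to 18701, highest in array 3, while 4 of 7 were above background in 0 arrays of E13 embryo and 6 of 7 in 0 of E16 embryo. Of the 4 tested, 3 were higher and 0 lower than in E16 embryo. Against E13 embryo 2 were higher and 1 lower, where 31.8% and 42.1% of all genes were. The part of these markers in the collagen differences was not tested. Of the markers of cartilage and skull, cartilage being the tissue best known for Col2a1 and Col9a2, 8 of 9 were above background in no P2 array and all 9 in no E13 array of either label. The other, Matn4, was above background in all 5 P2 arrays and in 3 E16 embryo arrays. The part of cartilage markers in Col2a1 and Col9a2 was not tested.

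Without P2 array 3, 14 genes were higher and 4 lower than in E16 embryo, and 16 higher and 3 lower than in E13 embryo. These counts include the genes tested only through the P2 arrays, have no share of all genes beside them and are not read as support. Without that array Col4a1 was still 2.70 above E16 embryo on the log2 scale and Col6a1 2.05.

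The genes that process, bind and surround these chains were followed in lists. Of 10 measured other basement membrane proteins, 5 were higher and 0 lower at P2 than in E16 embryo, where 30.4% and 41.5% of all genes were. Sparc, which chaperones collagen IV, was at least 31.4-fold higher, and Nid2 and Nid1, the nidogens that bridge laminin and collagen IV, at least 4.30-fold and 2.93-fold. Fbln2, the matrix glycoprotein fibulin 2, was 3.35-fold higher (adjusted p = 0.000115). Sparc and the nidogens were above background in 0 embryo arrays, so they were tested only through other arrays and had to differ. In the step from E13 to E16 embryo, 3 of these 10 rose and 2 fell, against 11.5% and 12.3% of all genes, with fibronectin (Fn1) up 2.17-fold (adjusted p = 0.00093).

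Of 17 measured enzymes that modify, cleave or crosslink collagen, 6 rose and 1 fell between E13 and E16 embryo (11.5% and 12.3% of all genes), and 4 were higher and 9 lower at P2 than in E16 embryo (30.4% and 41.5% of all genes). Loxl1, a lysyl oxidase best known from elastic fibres, rose 4.18-fold to E16 embryo (from 8.25 to 10.3, adjusted p = 1.5e-06) and was 6.49-fold lower at P2 (adjusted p = 1.7e-09). Crtap, a partner of the prolyl 3-hydroxylase, was 2.92-fold higher at P2 (adjusted p = 2.4e-08). Of 10 measured receptors, 2 rose and 0 fell between E13 and E16 embryo, led by the laminin-binding integrin chain Itgb4, which was at least 1.91-fold higher. At P2, 4 were higher and 6 lower than in E16 embryo, beside the same shares of all genes. Ddr1, a collagen-binding receptor kinase, was 7.57-fold lower at P2 (adjusted p = 1.5e-14).

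Of 8 measured metalloproteinases and their inhibitors, 3 rose and 2 fell between E13 and E16 embryo, against 11.5% and 12.3% of all genes. Mmp17 rose 3.33-fold (adjusted p = 2.3e-06) and the inhibitor Timp3, which binds to the matrix, fell 2.73-fold (adjusted p = 1.4e-05). At P2, 6 of the 8 were higher and 1 was lower than in E16 embryo, where 30.4% and 41.5% of all genes were. Timp3 was 5.62-fold above E16 embryo, and the collagenase Mmp14 was 4.81-fold below it (adjusted p = 2.5e-07). In none of these 4 lists did a gene pass between the labelled genotypes at E13 or E16.

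The 24 genes that could not be tested included 13 with no probe above background on any array. These were Col4a3 and Col4a4, the chains of kidney and lung basement membranes, Col10a1 of growth plate cartilage, Lamb3 of skin, Col5a3, Col6a4, Col6a5, Col6a6, Col13a1, Col14a1, Col19a1, Col25a1 and Col28a1. The other 11 were above background on 1 to 4 arrays: Col1a1, Col9a1 and Lamc3 on 3, Col4a6 and Col11a2 on 2, and Col6a2, Col8a2, Col11a1, Col17a1, Col27a1 and Lama4 on 1. A gene below background on an array is not shown to be absent from its cells.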

How the data were processed

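The files held, per the file headers, the average signal intensity of each probe as deposited, not normalised between arrays, and beside each signal the detection p-value that the authors deposited. The authors' deposited series matrix holds log2 values, whose normalisation is not given in the sources used here, and served only as an alternative. Total RNA was labelled as biotin cRNA, per the labels' protocols.

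Signals were background-corrected (normexp with negative controls inferred from the detection p-values, offset 16), quantile-normalised over all 27 arrays and taken to log2. A probe was kept (20498 of 45281) where 5 arrays or more gave it a detection p below 0.01, and the brightest kept probe stood for its gene. limma 3.58.1 in R 4.3.3 fitted 1 mean per group over 10663 genes, with moderated variances, Benjamini-Hochberg adjustment within each of 7 comparisons, and calls at an adjusted p under 0.05. Every adjusted p in the text comes from limma, and changes are log2 differences with their SE. A probe above background on no array of a group has only a bound there, "at least N-fold", taken against the lowest signal among detected probes of each array. The number of arrays limits the precision.

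Arrays are numbered by column order, as names only. The P2 column names also stand in the descriptions of the E13 samples labelled cKO, so columns were tied to groups and not to single samples. Members and lists were chosen with earlier results of these data known. Given by array were Col9a2, Col22a1 and, per comparison, the 3 largest rises and falls among called members. Col3a1, Col4a5, Col15a1 and Lamb2 were added after their values were seen. Of each other list, at most the 4 largest called changes per comparison were named. The fit was tested on simulated data. Alternatives covered background correction, scaling, the filter, probe choice, variance moderation, groups in the fit and arrays left out.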

Additional observations from a re-analysis of the deposited data

Results flagged for a closer look

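In 14 of 130 pairs of a tested gene and a group, 1 array lay far from the others by Dixon's test, of which chance gives about 1 in 20. Array 4 of the E13 group labelled cKO was the far array for Col4a1 at 9.65 (the others 5.82 to 6.68), Col4a2 at 8.78 (5.41 to 6.15), Col6a1 at 6.44 (4.45 to 4.60), Col3a1 at 6.05 (4.52 to 4.76) and, below background, Col23a1 at 5.66. It also had the highest endothelial, choroid plexus, erythroid, meningeal, pericyte, microglial and radial glia sums of its group, and their part was not tested. Array 2 of that group was low for Col9a2 at 7.40 (8.30 to 8.41) and high for Lamb1 at 5.34, below background.

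In the E16 group labelled cKO, array 3 was low for Col18a1 at 5.98 (6.78 to 7.04), and array 4 was high for Col3a1 at 4.91, below background. In the P2 group, array 3 was high for Col16a1 at 8.67 (the others at most 7.48), array 2 for Col23a1 at 6.78 (6.25 to 6.38), and array 1 was low for Col5a2 at 5.09, below background. Array 1 of E13 embryo was high for Col1a2 at 5.22 and Col6a1 at 4.56, both below background.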

How the results depend on the processing

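The recomputed results were 28: the largest called rises and falls of each comparison, with Col9a2 and Col22a1 between stages and between genotypes. Calls outside these 28 are not in the counts that follow. Some calls of Lamc1, Col7a1 and Col4a5 among them were lost under median scaling or with 1 array left out, as given beside those genes. Over 573 recomputed values of the 28 named results, 567 kept their direction and side of the threshold. In 5, all of Col9a2 at E16, the call was lost, and 1 turned: the change of Col22a1 between stages in the arrays labelled cKO, uncalled throughout, ran from -0.29 to 0.00092 with 1 array left out, the last without array 4 of E13.

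In the authors' series matrix, which gives values for 7 of the 26 genes (Col4a1, Col4a2, Col5a1, Col16a1, Col18a1, Col26a1 and Lamc1, so neither Col9a2 nor Col22a1), 5 were called between embryo stages, 2 between stages labelled cKO, 0 between genotypes at E13, 0 at E16, 5 for P2 against E16 and 7 against E13. Without a filter 29 of 50 were called for P2 against E16, and with detection needed in 5 embryonic arrays, a choice made after seeing the data, 10 against E16 and 11 against E13. No share of all genes is given beside the counts of alternatives, so they show only how the calls moved. A fit of the compared groups alone called 1 at E16, and leaving out array 2 of E13 and array 3 of E16 labelled cKO called 2 at E13. With 1 array left out, calls ran from 8 to 9 and 5 to 7 between stages (embryo, labelled cKO), 1 to 2 between genotypes at E13 and at E16, 0 for the interaction, 18 to 19 for P2 against E16 and 19 to 20 against E13. Under median scaling in place of quantiles, 39.3% and 30.6% of all called genes were higher between stages (embryo, labelled cKO), 50.7% for P2 against E16 and 47.7% against E13. Among the 26 genes that scaling lost 2 calls and gained 2, given beside Lamc1, Col7a1 and Lamb1.

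No paired analysis was possible because the signal columns carry no replicate numbers of the titles. The chip as a block was not run, since no header names one.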
